A study of Mus musculus with 20 samples.

Results

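A set of 134 transcripts had lower RNA-seq signal in both the heavy and the light polysome fractions when Rpl10a was knocked down in mouse E14 embryonic stem cells. They were 1.66% of the 8084 transcripts of the polysome RNA-seq table. They were chosen by measured values, in 4 conditions on the means of 2 replicates. The difference between Rpl10a and control siRNA, as log2(signal + 1), had to be −0.6 or lower in the heavy fractions and −0.5 or lower in the light fractions, and these differences had to lie within 0.8 of each other. The fourth condition came from ribosome profiling: the log2 ratio of footprints on captured RPL10A ribosomes over footprints on all ribosomes had to lie within 0.6 of 0. The first 2 conditions were met by 193 transcripts, the third removed none of them, and the fourth removed 59.

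The RNA-seq arm used wild-type E14 cells, a pluripotent line, given either a universal negative control siRNA or a single siRNA against Rpl10a. Each lysate was separated into a heavy pool of mRNAs with at least 4 ribosomes and a light pool of everything else, from free ribonucleoproteins and ribosomal subunits to polysomes of 2 to 3 ribosomes, which made 4 groups of 2 libraries. The profiling arm used 3 further E14 lines. The endogenous locus carried the tagged gene on 1 of its alleles: 3xFLAG-Rpl10a in the first line, Rps25-3xFLAG in the second, and in the third Rpl22-3xHA. Tagged ribosomes pulled down with beads (immunoprecipitation, IP) and total ribosomes gave 2 libraries each per line. All cells of both arms received 100 µg/ml cycloheximide, which stalls elongating ribosomes, for 1 min before harvest. The total libraries of the Rpl22 line carry the anti-HA antibody in their labels although their titles call them total, and the protocol text of this line repeats the siRNA transfection, which its genotype label does not.

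RPL10A is a protein of the large ribosomal subunit and forms part of the mobile L1 stalk, beside the site through which spent tRNA leaves the ribosome. In a sucrose gradient an mRNA sediments with the number of ribosomes it carries, so the heavy pool holds mRNAs that are being translated by many ribosomes, and the light pool holds those with few or none. An mRNA that moves between pools is lower in the first and higher in the other, while one that becomes scarcer in the lysate is lower in both. The rule asked for lower signal in both pools, so that pattern is the selection and not a result.

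The deposited RNA-seq libraries summed to between 943664 and 1067210 units over the 8084 transcripts, and replicate libraries of the whole series correlated with r from 0.973 to 0.995 on log2 values. Read depth is unknown, since the deposited values are normalised and rounded to 1 decimal. The files name transcripts by UCSC identifiers, none of which (0 of 8084) could be paired with a gene symbol in the reference tables used here. The level of Rpl10a itself, cell type markers and gene groups were therefore not analysed here, and how far the siRNA lowered Rpl10a was not checked. All RNA-seq values are relative to the other transcripts of the same pool, so absolute amounts were not measured. In these bulk samples, fewer cells of a type and less RNA per cell cannot be told apart.

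In every control library the 134 transcripts took a larger share of the signal than in the matching Rpl10a siRNA libraries. In the light pool their summed signal was 2.72% and 2.65% of the library with control siRNA and 1.83% and 1.56% with Rpl10a siRNA. In the heavy pool it was 1.47% and 1.60% with control siRNA and 0.983% and 1.01% with Rpl10a siRNA. The 2 groups did not overlap in either pool, which the choice of members fixes.

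**Figure D1:**
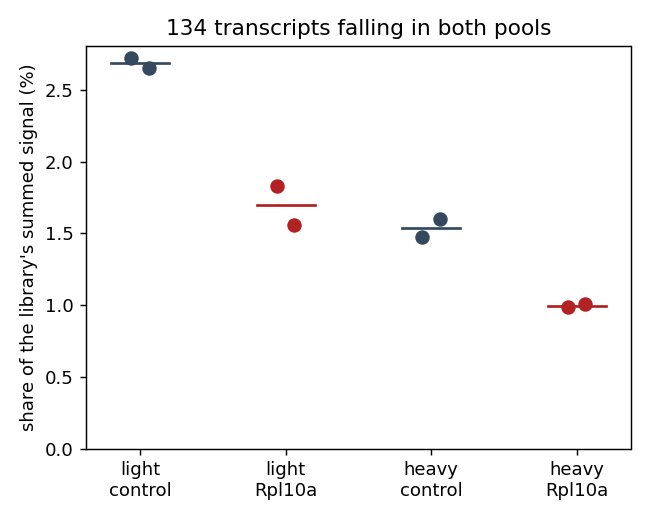
Share of each library's summed RNA-seq signal (y axis, %) held by the 134 transcripts in the light and heavy pools with control (dark) or Rpl10a (red) siRNA; points are libraries and lines are means of 2. The light pool held a larger share than the heavy pool under the same siRNA, and both Rpl10a siRNA groups lie below their controls.

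The size of the difference was alike in the 2 pools and moderate in each. A typical member kept 60.2% of its control signal in the heavy pool (range 37.8% to 66.5%) and 61.7% in the light pool (range 31.6% to 70.6%). On the log2 scale the median difference was −0.71 in heavy and −0.68 in light, against 0.01 and 0.02 over all transcripts. Few members had lost more than 1 log2 unit: 7 in the heavy pool and 11 in the light pool. These values describe the selection and are not evidence for it. At the edges of the rule, the member closest to the heavy limit had a difference of −0.601 and the nearest transcript outside −0.599. For the light limit these values were −0.503 and −0.49975, and for the RPL10A ratio, regardless of sign, 0.59972 and 0.602.

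**Figure D2:**
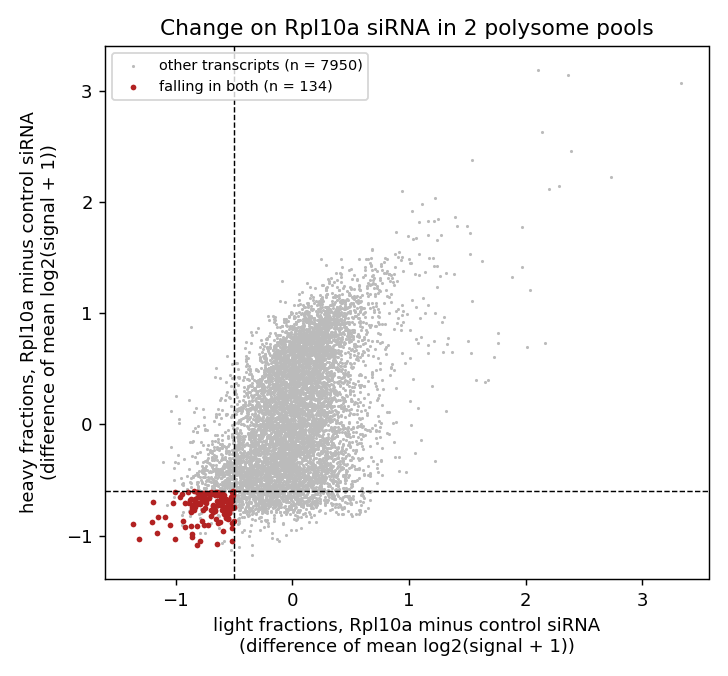
Difference between Rpl10a and control siRNA in the light (x axis) and heavy (y axis) pools, each as a difference of mean log2(signal + 1), for all 8084 transcripts. The 134 members (red) fill the lower left corner bounded by the dashed limits of −0.5 and −0.6, and the grey transcripts within that corner are those removed by the RPL10A ratio.

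Limma called 109 of the 134 lower in the heavy pool at an adjusted p below 0.05, where 22.7% of all transcripts were called lower, and 58 lower in the light pool, where 3.61% were. All 58 were among the 109, so 58 members (43.3%) were called lower in both pools, against 2.62% of all transcripts. A further 51 members passed in heavy fractions only and 25 in neither, for which shares over all transcripts were not computed. Nothing is read from these shares, as the rule used the same contrasts. Control and Rpl10a siRNA libraries counted as fully separated when both knockdown values lay below both controls. That held for 127 members (94.8%) in the heavy pool and 124 (92.5%) in the light pool, again on contrasts that the rule used. Over all transcripts 36% were separated downward in heavy and 29% in light fractions. Light-pool calls were lost over the whole table when single libraries were left out. Without any 1 of the 4 control libraries, or without the second light library with Rpl10a siRNA, 0 of all 8084 transcripts were called and so 0 members. Without the first such library 13 members were among the 39 transcripts called lower. In the heavy pool, leaving out the second control heavy library left 46 members among 447 transcripts called lower (5.53% of the table).

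The members with the lowest heavy-pool differences, among those at or above the median signal of the table, were uc007lpp.1 and uc007lek.2. In the heavy pool uc007lpp.1 stood at 147 and 139 with control siRNA and at 78.7 and 57.2 with Rpl10a siRNA (log2 difference −1.08, SE 0.27, limma adjusted p = 0.0124). In the light pool it stood at 109 and 82.7 with control and 70.9 and 39.9 with Rpl10a siRNA (log2 difference −0.82, SE 0.27, limma adjusted p = 0.0983). Its groups did not overlap in either pool, and its heavy value was above its light value with control siRNA, unlike most members.

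uc007lek.2 had heavy values of 106 and 86.6 with control siRNA and 51.5 and 41.0 with Rpl10a siRNA (log2 difference −1.05, SE 0.28, limma adjusted p = 0.0156). Its light values were 74.2 and 50.7 with control and 55.9 and 32.2 with Rpl10a siRNA (log2 difference −0.52, SE 0.28, limma adjusted p = 0.274). In the light pool the groups overlapped, since the first Rpl10a library lay above the second control library.

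The lowest light-pool differences by the same rule belonged to uc009rec.1 and uc007gim.2. Neither passed the test in either pool when replicates were treated as unpaired, as they are throughout. uc009rec.1 stood at 220 and 125 in control light libraries and at 118 and 43.2 in Rpl10a light libraries (log2 difference −1.20, SE 0.51, limma adjusted p = 0.184). Its heavy values were 102 and 64.6 with control and 63.3 and 30.1 with Rpl10a siRNA (log2 difference −0.88, SE 0.51, limma adjusted p = 0.179). In each of the 4 groups its first replicate was the higher, and the groups did not overlap in either pool.

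uc007gim.2 showed the same spread at a higher level. Its light values were 1382 and 703 with control siRNA and 719 and 274 with Rpl10a siRNA (log2 difference −1.15, SE 0.54, limma adjusted p = 0.225). Its heavy values were 274 and 156 with control and 172 and 77.9 with Rpl10a siRNA (log2 difference −0.83, SE 0.54, limma adjusted p = 0.225). In both pools the first Rpl10a library lay above the second control library, so the groups overlapped. Between libraries of the same replicate number, the Rpl10a value of both transcripts was the lower in each pool. With the replicate number as a block, limma called both lower in each pool. For uc009rec.1 the limma adjusted p was 3.9e-05 in light and 0.000121 in heavy fractions, and for uc007gim.2 it was 1.6e-05 and 6.2e-05. That block called 12.4% of all transcripts lower in light and 30.9% in heavy fractions, with 132 and 134 of the 134 members. Both transcripts were picked by their light differences, so these p-values only describe them. The labels do not say whether a number marks a shared culture.

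Such a common order of the replicates occurred in 56 of the 134 members (41.8%), where the library of the same replicate number was the higher in all 4 groups. Over all transcripts the share was 31.1%. Replicates of the members also lay farther apart than those of all transcripts in 3 of the 4 groups: in light fractions the median gap was 0.22 log2 units with control and 0.26 with Rpl10a siRNA, against 0.13 and 0.14 over all transcripts. In heavy fractions it was 0.20 against 0.16 with control siRNA and 0.23 against 0.24 with Rpl10a siRNA. The part of this spread in the selection was not tested.

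The member with the highest signal was uc009mvv.1, whose light values were 2110 and 3072 with control and 1191 and 1341 with Rpl10a siRNA (log2 difference −1.01, SE 0.30, limma adjusted p = 0.0783). Its heavy values were 479 and 817 with control and 328 and 515 with Rpl10a siRNA (log2 difference −0.60, SE 0.30, limma adjusted p = 0.121). The light groups were separate and the heavy groups overlapped. This signal is not scaled to transcript length, so its rank does not give the number of mRNA molecules.

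**Figure D3:**
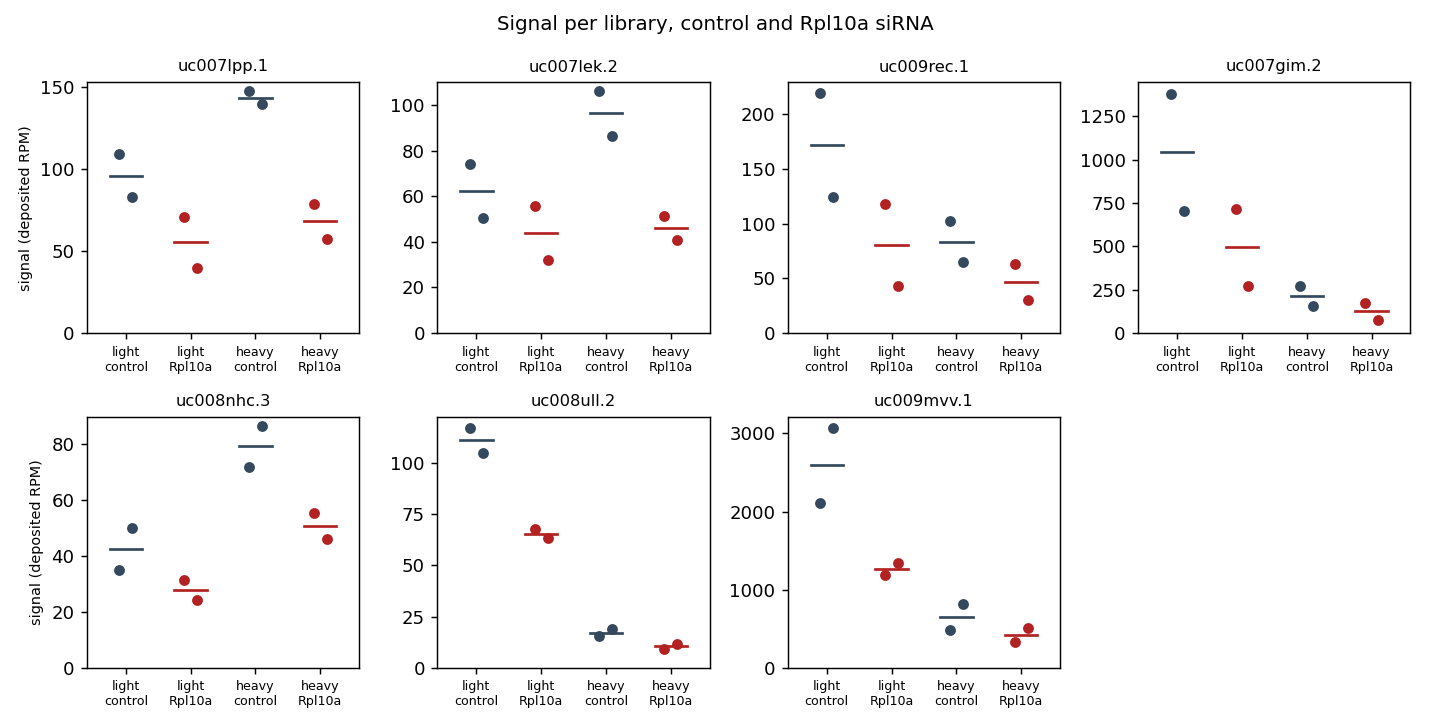
RNA-seq signal (y axis, deposited RPM values, each panel from 0) of 7 members in the light and heavy pools with control (dark) or Rpl10a (red) siRNA; points are the 2 libraries of a group, replicate 1 on the left, and lines are their means. uc008ull.2 has tight replicates and a light signal far above its heavy signal. The first replicate is the higher in all 4 groups for uc007gim.2, uc009rec.1, uc007lpp.1 and uc007lek.2, and the second for uc009mvv.1.

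With control siRNA the members lay mostly on the light side of the gradient. Of the 134, 79 had more signal in the light than in the heavy pool and 11 had more in the heavy pool (limma, adjusted p below 0.05), while 44 did not pass. Over all transcripts 26.4% were on the light side and 28% on the heavy side. The median heavy-minus-light difference was −0.68 among members (quartiles −1.20 and −0.21) and −0.04 over all transcripts. This contrast was not part of the rule but shares its control libraries, so it is given as a description.

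With Rpl10a siRNA the distribution was much the same: 83 members were called on the light side and 7 on the heavy side, against 22.1% and 31.6% of all transcripts. The median difference was −0.80, against 0.16 over all transcripts. All 7 heavy-side members and 76 of the light-side members had the same side with control siRNA, and 0 were called on opposite sides. These counts describe the selection, since the rule asked for lower signal in both pools. Their shares over all transcripts were not computed, so keeping a side is not shown to be particular to the members. The change in the heavy-against-light difference on knockdown was between −0.53 and 0.50 in every member, with a median of −0.04. No member (0) was called for that shift by limma, where 6.43% of all transcripts were. None (0) had an unadjusted limma p below 0.05, where 30.5% of all transcripts had. These counts describe the selection, since the rule asked for lower signal in both pools. Its bound of 0.8 on the difference between pools removed no transcript. Across scalings the member median of this shift was 0.01 with library totals and −0.15 with aligned medians, always about 0.13 below the median of all transcripts.

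**Figure D4:**
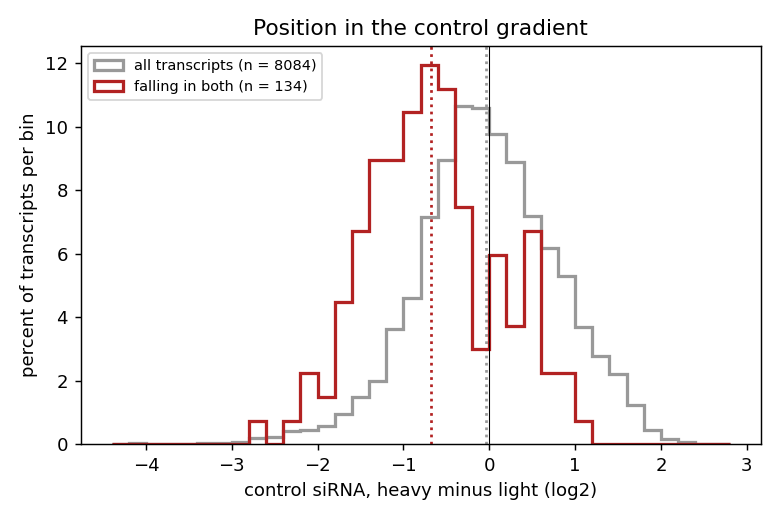
Distribution of the heavy-minus-light difference with control siRNA (x axis, log2) for all 8084 transcripts (grey) and the 134 members (red), as percent of transcripts per bin (y axis), with dotted lines at the medians of −0.04 and −0.68. Members are shifted to the light side, with a minority between 0 and 1.05.

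The range of positions in the gradient was wide. By the fixed rule for naming, the lowest member was uc008ull.2, with 117 and 105 in control light and 15.5 and 18.8 in control heavy libraries (log2 difference −2.63, SE 0.15, limma adjusted p = 1.1e-05). With Rpl10a siRNA it stood at 67.6 and 63.3 in light and at 9.4 and 11.6 in heavy libraries. Both pools thus went down by a like factor (log2 difference −0.75 in light, limma adjusted p = 0.0353, and −0.66 in heavy, limma adjusted p = 0.0100, SE 0.15 each), and no groups overlapped.

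At the other end, uc008nhc.3 had 71.7 and 86.5 in control heavy and 35.0 and 50.1 in control light libraries (log2 difference 0.89, SE 0.21, limma adjusted p = 0.00633). With Rpl10a siRNA its heavy values were 55.2 and 46.1 (log2 difference −0.63, SE 0.21, limma adjusted p = 0.0342) and its light values 31.4 and 24.2 (log2 difference −0.59, SE 0.21, limma adjusted p = 0.121). Its groups did not overlap in either pool, though only the heavy difference passed the test.

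Light-side and heavy-side members had similar median falls, though the rule set the least fall in each pool for all of them. The 79 on the light side had median differences of −0.68 in heavy and −0.72 in light fractions. The 44 on neither side had −0.77 and −0.68, and the 11 on the heavy side had −0.80 and −0.60. In the same order, the median change in the heavy-against-light difference was 0.04, −0.11 and −0.18 in members. Over all transcripts on these sides it was 0.28, 0.24 and −0.34. Calls of lower signal in the light pool came to 47 of the 79 light-side members, 7 of the 44 and 4 of the 11. Over all transcripts such calls were also most frequent on the light side, with 11.9% of 2134, against 0.869% of 3684 on neither side and 0.309% of 2266 on the heavy side. Footprint density in total ribosomes of the Rpl10a line, scaled to length, had medians of 27.6, 17.5 and 56.8 RPKM in these 3 groups of members. Over all transcripts on the same sides the medians were 17.05, 19.4 and 55.4 RPKM. All these contrasts share libraries, so the values are descriptions.

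Members were spread over low and high expression, with the largest number in the top quintile by both measures given here. Footprint density in total ribosomes of the Rpl10a line, which is scaled to transcript length, had a median of 26.4 RPKM among members and 24.4 RPKM over the table. Members ran from 3.75 to 2082 RPKM and the table from 0.15 to 11936 RPKM. By quintile of that density among the 8084 transcripts, from low to high, the members numbered 27, 24, 26, 24 and 33. By RNA-seq signal, which is not scaled to length, they numbered 22, 30, 17, 23 and 42. In the other lines the median member stood at 26.8 RPKM (Rps25) and 25.8 RPKM (Rpl22), against 23.9 and 25.4 RPKM over those tables.

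The RPL10A ratio came from other cells than the siRNA experiment. Before the bound on it, 25 of the 193 transcripts (13.0%) had a log2 ratio of 0.6 or higher in the RPL10A IP and 34 (17.6%) one of −0.6 or lower. Over the 8084 transcripts these shares were 8.1% and 6.8%. Together 30.6% of the 193 lay beyond the bound, against 14.9% of all transcripts. Limma called 4 of the 193 higher and 3 lower in the RPL10A IP, where 0.847% and 0.611% of its 8505 transcripts were called. The 59 removed transcripts had a median density of 9.0 RPKM in total ribosomes, against 26.4 RPKM among the members kept. The part of low footprint density in the wide ratios was not tested.

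The 134 kept transcripts had a median RPL10A ratio of −0.01 in the limma fit, with 66 above 0 and 68 below, and 0 were called. At an unadjusted p below 0.05 limma had 8 higher (5.97%) and 10 lower (7.46%), against 11.8% and 12.5% of the table. These numbers follow from the bound and describe it.

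The RPS25 and RPL22 captures were not used by the rule. The RPS25 table held 122 of the 134 members, and their median log2 ratio of IP over total was 0.01, equal to the 0.01 over all 8779 transcripts. Ratios above 0 numbered 62 and ratios below 0 numbered 60. Limma called 0 members, with 0.0456% of the table called. At an unadjusted p below 0.05, 19 members (15.6%) were higher and 12 (9.84%) lower, against 11.1% and 9.75% of the table. RPS25 is a protein of the small subunit, so this capture takes up ribosomes through a different subunit from RPL10A.

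The highest RPS25 ratios among members at or above the median level were those of uc007wvd.1 and uc008lks.1. uc007wvd.1 had 27.6 and 27.7 RPKM in total and 48.8 and 39.1 RPKM in IP libraries (log2 ratio 0.64, SE 0.16, limma adjusted p = 0.129). uc008lks.1 had 40.3 and 40.7 RPKM in total and 64.1 and 60.0 RPKM in IP libraries (log2 ratio 0.60, SE 0.12, limma adjusted p = 0.105). In both, the IP libraries lay above the total libraries without overlap, and neither passed the test.

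The lowest were uc009fhu.1 and uc008hrk.1. uc009fhu.1 had 62.7 and 79.7 RPKM in total and 42.9 and 40.0 RPKM in IP libraries (log2 ratio −0.76, SE 0.15, limma adjusted p = 0.106). uc008hrk.1 had 146 and 153 RPKM in total and 95.1 and 113 RPKM in IP libraries (log2 ratio −0.53, SE 0.12, limma adjusted p = 0.120). Their IP libraries lay below the total libraries without overlap, again without passing the test. In the RPL10A IP the log2 ratios of these 4 transcripts were 0.20, 0.33, −0.45 and −0.23, each with the sign it had in the RPS25 IP.

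That likeness held across members: RPL10A and RPS25 ratios had r = 0.51 (Spearman rho 0.51) over 122 members, although the rule had narrowed the RPL10A ratios. Over 7704 transcripts r was 0.53 (rho 0.54). These are descriptions across transcripts, which are not independent replicates, and both captures used the same FLAG beads and each line its own total libraries.

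In the RPL22 capture most members had a ratio above 0 and most transcripts of the table one below 0. RPL22 is a further large-subunit protein, captured here through an HA tag. Of the 134 members 123 were measured, 80 had a ratio above 0 and 43 below. That is 65.0% above 0, against 44.1% of the 8588 transcripts. The member median was 0.10 and that of the table −0.03. No member was called (0, limma), nor was any transcript of the table (0%). At an unadjusted p below 0.05, 24 members (19.5%) were higher and 6 (4.88%) lower, where the table had 8.87% higher and 11.3% lower.

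The distance between the member median and the table median was 0.14 with the values as deposited, with library totals and with aligned medians, but the level of both depended on the scaling. With library totals the members were at 0.020 and the table at −0.12, with 53.7% of members above 0. What the antibody named for the Rpl22 total samples did to these ratios was not tested.

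The largest RPL22 ratios among members at or above the median level were those of uc007meu.1 and uc009qnr.2. uc007meu.1 had 58.9 and 67.6 RPKM in total and 116 and 91.0 RPKM in IP libraries (log2 ratio 0.69, SE 0.13, limma adjusted p = 0.105). uc009qnr.2 had 62.0 and 55.6 RPKM in total and 93.7 and 84.4 RPKM in IP libraries (log2 ratio 0.59, SE 0.10, limma adjusted p = 0.105). The IP and total libraries did not overlap in either. Both were light-side transcripts: with control siRNA, uc007meu.1 had 313 and 283 in light and 124 and 144 in heavy libraries, and uc009qnr.2 had 275 and 232 in light and 126 and 132 in heavy libraries.

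At the low end, uc007jor.2 had 49.9 and 51.4 RPKM in total and 42.2 and 44.3 RPKM in IP libraries (log2 ratio −0.22, SE 0.09, limma adjusted p = 0.227). uc009jsm.1 had 42.4 and 49.7 RPKM in total and 37.4 and 43.1 RPKM in IP libraries (log2 ratio −0.19, SE 0.12, limma adjusted p = 0.387). The groups of uc009jsm.1 overlapped and those of uc007jor.2 did not. Among members at or above the median level the low end of the RPL22 ratios was thus nearer to 0 than the high end. That did not hold over all 123 measured members, whose ratios ran from −0.72 to 0.69.

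Of the 80 members with an RPL22 ratio above 0, 50 were on the light side with control siRNA, as were 72 of all 123 measured members. Among the 79 light-side members, 72 were measured, with a median ratio of 0.16 and 50 above 0 (69.4%). The 1947 measured transcripts of the whole table's light side had a median of −0.07, and 39.0% were above 0. Members on neither side had a median of 0.03 (22 of 41 above 0) and those on the heavy side 0.13 (8 of 10). Over all transcripts the median was −0.05 on neither side (41.1% above 0) and 0.006 on the heavy side (50.9%). In the RPS25 capture the same 3 groups of members had medians of 0.05, −0.05 and −0.09. These are medians of lists and no test was made of their differences.

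**Figure D5:**
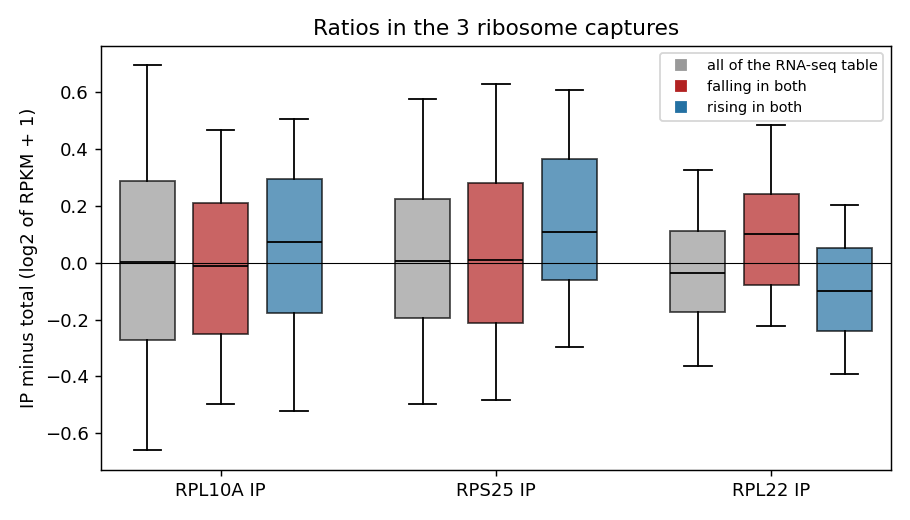
Log2 ratio of IP over total footprints (y axis) in the RPL10A, RPS25 and RPL22 captures for all transcripts of the RNA-seq table (grey), the 134 members (red) and the 236 transcripts rising in both pools (blue); boxes are quartiles, the middle line the median and whiskers the 5th and 95th percentiles. The boxes overlap in every capture; the red median lies above the grey in the RPL22 capture (member median 0.10) and level with it in the RPS25 capture.

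A mirror image of the rule gave 236 transcripts with higher signal in both pools on knockdown (differences of at least 0.6 and 0.5, other conditions unchanged). Their median difference was 1.10 in the heavy and 0.69 in the light pool, where the 134 members had −0.71 and −0.68, and both pairs describe the selection. In the control gradient the rising set had a median heavy-minus-light difference of −0.13. It had 57 transcripts (24.2%) on the light side and 23 (9.75%) on the heavy side. Among members these shares were 59.0% and 8.21%, and over all transcripts 26.4% and 28.0%. In the RPL22 capture the rising set had a median ratio of −0.10, with 35.6% of 205 above 0, and in the RPS25 capture 0.11, with 66.7% of 222 above 0. The members thus stood at 0.10 and 0.01 in the captures where the rising set stood at −0.10 and 0.11. No test was made between these lists.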

How the data were processed

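The authors deposited 1 file per library. Ribo-Seq values are RPKM, per the file headers. RNA-seq values are called RPM there, but library sums reach 1067210, so the deposited values were used as a scaled signal whose exact factor is unknown. Per the submitters' processing notes, cutadapt, Bowtie2 and the mm10 build were used for all libraries and STAR for the RPL22 and RNA-seq libraries. Versions, counting and filters: not given in the sources used here. No whole counts could be recovered.

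limma 3.58.1 (R 4.3.3) was fitted to log2(value + 1) (moderated variances with a trend, two-sided, Benjamini-Hochberg over all transcripts of a table, call at adjusted p below 0.05). The added 1 shrinks differences of low values. The 8 RNA-seq libraries shared 1 fit, and each IP was fitted with its own total libraries. The fits were tested on simulated data. Groups follow the sample titles. Nothing in the labels gives replicates as separate cultures, so the p-values may reflect technical spread alone.

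The members, lists and tests were chosen with earlier results of these data known. Named members are at most 2 per direction and comparison, with a mean at or above the table median: those with the lowest heavy and light differences, the highest and lowest IP ratios and the ends of the control gradient, plus the member with the highest signal. Alternatives were pseudocounts of 0.5 and 5, a minimum mean of 10, library totals, aligned medians, no trend, a replicate block and leaving out each library.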

Additional observations from a re-analysis of the deposited data

How the results depend on the processing

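The number of transcripts that meet the rule depended on the scaling: 83 with a pseudocount of 5 (75 of them among the 134), 56 with library totals (all 56 among them) and 265 with aligned medians (132 among them), and 94 to 195 without single libraries. For the fixed 134 members, light-pool calls were 30 without a variance trend (161 called lower over all transcripts) and 0 to 83 without single libraries (0 to 533 over all), and heavy-pool calls 46 to 114 without single libraries (447 to 1958 over all). Pairing by replicate number was not assumed, since the labels link no number with a shared culture, although same-numbered RNA-seq libraries deviated together (r from 0.526 to 0.622) and those of IP and total less so (r from −0.0036 to 0.176). With a replicate block, limma called 132 members lower in light fractions (1002 over all transcripts), 134 lower in heavy fractions (2495 over all), 1 in the polysome shift, toward light (2520 over all, 31.2%), and 15 in the RPL22 IP (13 higher and 2 lower, with 392 and 300 over the table), and 0 in the RPS25 IP. The median RPL22 ratio of the members was 0.020 with library totals and the median RPS25 ratio −0.035 with aligned medians. Member calls on the control gradient were 82 with aligned medians, where 54.1% of all transcripts were called. They were 112 with a replicate block, where 66.4% were, and lay between these under the other alternatives that kept all libraries. In the RPL10A and RPS25 IPs 0 members were called under any alternative, which says nothing of stability: fits without single libraries called 0 of all transcripts in the RPL10A IP and at most 1 in the RPS25 IP. The unknown depth and 2 libraries per group limit every value.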

Other observations

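Identifiers that follow each other in the alphabet were looked at after the values were seen. Only 1 pair of members had successive identifiers, uc009mvv.1 and uc009mvw.2, with light differences of −1.01 and −0.78, heavy differences of −0.60 and −0.69, control heavy-minus-light differences of −2.02 and −1.49 and RPL22 ratios of 0.27 and 0.31. Whether they share reads was not tested, as transcript positions were not used here. A further 59 transcripts outside the set had an identifier next to a member's. Their median heavy difference was −0.36 and their median light difference −0.06, and 25 of the 59 (42.4%) were below 0 in both pools, against 31.9% of all 8084 transcripts, a count that takes in the members.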
